A study of Mus musculus with 4 samples.

Results

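The bone differences of the Twist1 haploinsufficient skull are described here, as the log2 ratio of FPKM between the library labelled Twist1+/- parietal bone and the Twist1+/- frontal bone library, together with the fate in the mutant of the differences seen between the wild-type bones. FPKM, the unit of the values, counts fragments per kilobase of transcript and so allows for transcript length and for depth. A gene was a member when it lay above 0 in both mutant libraries and reached 5 FPKM in the higher, and genes whose symbols begin with Mir, Snora, Snord or Scarna, which are short RNAs, were left out. By that rule 9941 of 23946 genes were members. The same rule gave 10272 members for the wild-type bones, and 9577 genes were members in both genotypes. The 4 libraries came from mice on a C57BL/6J background at postnatal day 21. The mutants carry 1 targeted Twist1 allele in every cell, and the controls are wild type at that gene. RNA came from 12 mice of each strain, and how they were pooled is not given in the sources used here. The bones sequenced held the pericranium, the bone plate and the dura mater. Each genotype and bone is represented here by 1 library, so differences between bones have no check by replicates and none was tested.

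Twist1 is a basic helix-loop-helix transcription factor that holds back osteoblast differentiation and keeps cranial sutures open, and loss of 1 copy causes fusion of the coronal suture. Neural crest gives rise to the frontal bone, and mesoderm to the parietal bone. Both are flat bones that ossify directly from mesenchyme, contain marrow and lie between skin and meninges. The frontal bone borders the nasal cavity and the orbit, the temporalis muscle attaches to the side of the vault, and the pineal gland lies under its rear. In bulk tissue, fewer cells of a type and less RNA per cell cannot be told apart.

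Twist1, on chromosome 12 of mm9 from 34642536 to 34644682 (plus strand, 2 exons), stood at 30.4 FPKM in Twist1+/- frontal bone while the library labelled Twist1+/- parietal bone had 50.7 FPKM. The wild-type bones had 59.02 FPKM (frontal) and 52.5 FPKM (parietal). The mutant frontal library was below both wild-type libraries, while the library labelled Twist1+/- parietal bone was within 1.5-fold of both, so every direction below rests on that library's label. Markers of bone were present in both mutant libraries. Osteocalcin (Bglap) was at 5371 FPKM in frontal and 7982 FPKM in parietal bone, and the osteoblast transcription factor osterix (Sp7) was at 83.5 and 108.2 FPKM. Type I collagen could not be used, since Col1a1 and Col1a2 were listed at 0 in every library but wild-type parietal bone. The depth of each library is unknown from FPKM. Genes at the lowest values placed the worth of 1 read in the library labelled Twist1+/- parietal bone at 1.26 times that in Twist1+/- frontal bone. The scaling of the values is not given, so this need not be a ratio of depths. The frontal library had 19452 genes above 0 against 18288.

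The mutant bones differed by more than 3-fold at 124 members, which is 1.25% of all members. Of these, 32 were higher in parietal bone (0.322% of members) and 92 were higher in frontal bone (0.925%). Between the wild-type bones 867 of 10272 members were past 3-fold (8.44%), 304 of them on the parietal side (2.96%) and 563 on the frontal side (5.48%). Scaled to Gapdh, the wild-type split was 180 and 922, and the mutant split 32 and 85. Over the 9577 genes that were members in both genotypes, 76 were past 3-fold in the mutant (0.794%) and 678 in wild type (7.08%). The standard deviation of the log2 ratio was 0.544 across the mutant members and 1.09 across the wild-type members, and the median was 0.07 in both. At a 2-fold limit, 6.13% of mutant members and 21.8% of wild-type members were past it. The lower share in the mutant held at every level of expression. Among members from 5 to 10 FPKM in the higher library 1.88% were past 3-fold in the mutant and 10.8% in wild type, and at 100 FPKM or more the shares were 0.925% (7 of 757 members) and 10.6%. The excess on the frontal side came from genes of low level, since at 20 FPKM or more 17 members were higher in parietal and 13 in frontal bone. At the 5 FPKM limit, Timeless, a regulator of DNA replication, was the last gene inside at 5.0004 FPKM in frontal bone, and Meox2, a mesodermal homeobox gene, was the first outside at 1.53 FPKM in frontal and 4.9995 FPKM in parietal bone.

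Secreted regulators of Wnt signalling and genes of connective tissue were among the parietal-high genes. Sfrp2, a secreted Frizzled-related protein that binds Wnt ligands, lies on chromosome 3 from 83570243 to 83578238 (plus strand, 3 exons). It was at 42.8 FPKM in Twist1+/- frontal bone, 399.8 FPKM in parietal bone, and 63.1 and 57.4 FPKM in wild-type frontal and parietal bone. The mutant parietal library stood alone and the other libraries lay close together, with a mutant ratio of 9.34-fold (log2 3.22) and a wild-type log2 ratio of -0.14. Notum, an enzyme that strips the lipid from Wnt ligands and so inactivates them, was at 4.51 and 14.7 FPKM in the mutant bones and at 4.69 and 2.44 FPKM in wild-type frontal and parietal bone. Clec3b (tetranectin, a plasminogen-binding protein of connective tissue) was at 4.28 FPKM in mutant frontal and 26.2 FPKM in mutant parietal bone, against 7.80 and 8.24 FPKM in wild type. Dpt (dermatopontin, a collagen-binding matrix protein) was at 11.3 and 63.9 FPKM in the mutant, and at 23.98 and 57.9 FPKM in wild type. Here the frontal library of the mutant was the lowest of the 4, and the parietal libraries were close.

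C1qtnf3, a secreted protein of the C1q and TNF family, was at 1.58 and 11.1 FPKM in the mutant and at 3.63 and 23.0 FPKM in wild type, so parietal bone was higher in both. Prrx2, a homeobox factor of cranial and limb mesenchyme on chromosome 2 (30690492 to 30736761, plus strand), was at 12.1 and 41.4 FPKM in the mutant and at 16.2 and 62.6 FPKM in wild type. Anxa8, a membrane-binding annexin, behaved alike at 4.05 and 18.01 FPKM and at 2.70 and 13.4 FPKM. Krtdap, a secreted protein of differentiating keratinocytes, had the widest ratio of all members at or above 10 FPKM. It was at 0.348 FPKM in mutant frontal bone and 11.4 FPKM in mutant parietal bone, and below 1 FPKM in both wild-type libraries. The keratinocyte list as a whole summed to 36.8 and 55.3 FPKM in the mutant bones, with 4 of its 29 measured genes being members and 1 of them, Krtdap, past 3-fold. Whether skin had a part in that difference was not tested. Hist2h4 (a histone H4 gene), Hbb-bs (an adult beta-globin, listed at 0 in wild-type frontal bone) and Zfp91Cntf (a read-through of the genes Zfp91 and Cntf) completed the 12 leading genes with Retnla and Scgb1c1, which are described with the reversed differences. Globin genes are near copies of each other, so the value of Hbb-bs alone is uncertain.

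A list of 29 fibroblast and tendon genes, drawn up after these leading genes had been seen, held 23 members, of which 6 were past 3-fold in parietal bone and none in frontal bone, with a median log2 ratio of 0.89 against 0.07 over all members. Over all members 0.322% were past 3-fold in parietal bone. The choice of the list favours genes that were higher in parietal bone, so the count is a description. Beside Sfrp2, Clec3b and Dpt it held Crispld2 (a secreted CAP-domain protein; 35.2 and 109 FPKM), Igfbp6 (a binding protein of IGF2; 13.8 and 43.0 FPKM) and Cilp2 (a matrix protein of cartilage and tendon; 6.30 and 19.8 FPKM). In wild type Crispld2 was at 34.8 and 36.7 FPKM and Igfbp6 at 21.0 and 20.2 FPKM, close to equal in the bones, while Cilp2 was at 4.53 and 21.4 FPKM. The abundant genes of the list had smaller ratios. The proteoglycans Dcn and Lum had mutant log2 ratios of 0.51 and 0.65. The tenocyte gene Tnmd had 1.51 in the mutant, from 10.3 and 29.2 FPKM, and 2.73 in wild type, from 21.3 and 142 FPKM.

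**Figure D1:**
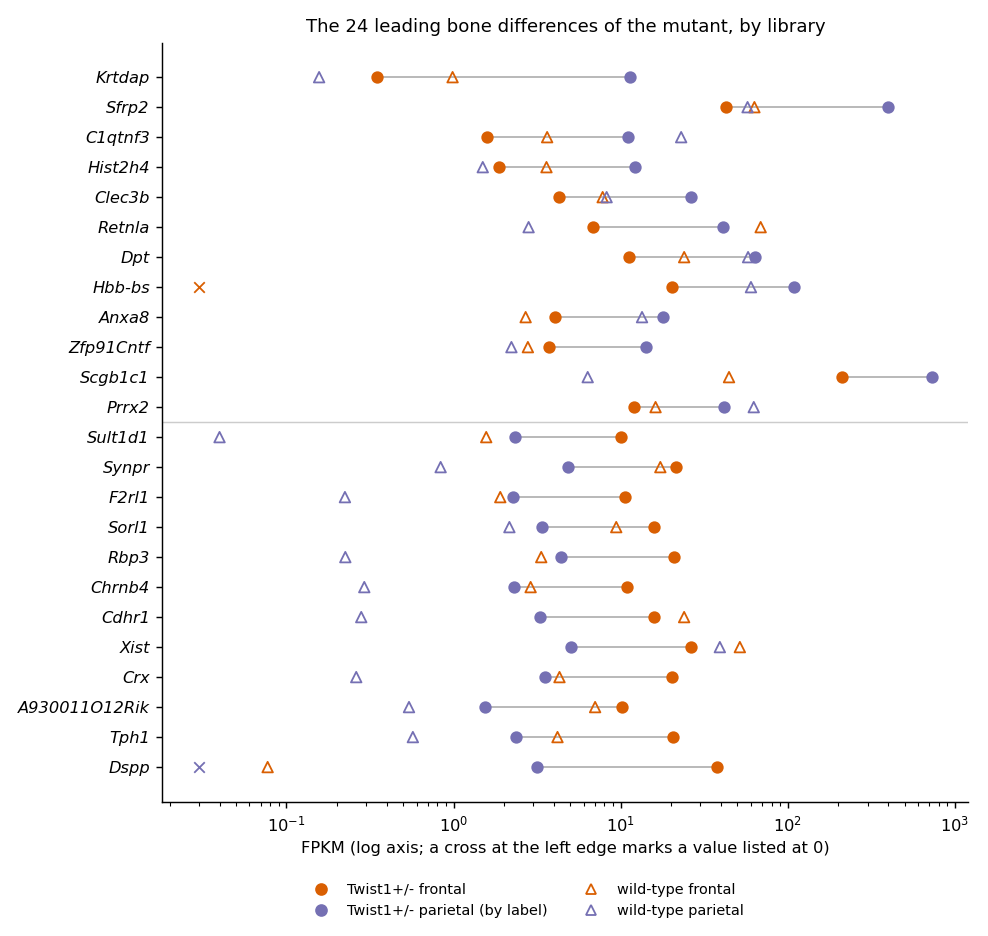
FPKM (log axis) of the 12 members higher in parietal bone (top) and the 12 higher in frontal bone (bottom) with the widest ratios between the mutant bones, among those at or above 10 FPKM. Filled circles are the mutant libraries joined by a line, open triangles the wild-type libraries, orange frontal and purple parietal. For Sfrp2 only the mutant parietal circle stands away, at 399.8 FPKM, while for Cdhr1, Synpr and A930011O12Rik the wild-type triangles are spread in the same order as the circles.

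Several leading genes of the frontal side are known from the pineal gland and from photoreceptors. These tissues share a programme of phototransduction genes driven by the homeobox factors Crx and Otx2, and the pineal gland makes melatonin from serotonin. Tph1, the rate-limiting enzyme of serotonin synthesis in the pineal gland, was at 20.6 FPKM in Twist1+/- frontal bone, 2.35 FPKM in parietal bone, and 4.19 and 0.571 FPKM in wild-type frontal and parietal bone. Crx itself was at 20.2 and 3.52 FPKM in the mutant and at 4.30 and 0.262 FPKM in wild type. Rbp3, the retinoid carrier between photoreceptors and pigment epithelium, was at 20.8 and 4.42 FPKM in the mutant and at 3.35 and 0.225 FPKM in wild type. In each of the 3 genes mutant frontal bone was the highest library and wild-type parietal bone the lowest. Sag, the arrestin of rods and pineal cells, had 23.2, 5.79, 5.22 and 0.657 FPKM in the same order, and Pde6c, the phosphodiesterase of cones, had 7.23, 0.765, 1.02 and 0.0980 FPKM.

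A list of 29 pineal and photoreceptor genes, which was also drawn up after the leading genes had been seen, held 14 members. Of these, 10 were past 3-fold in frontal bone and none in parietal bone, with a median log2 ratio of -1.91 against 0.07 over all members. Over all members 0.925% were past 3-fold in frontal bone and 0.322% in parietal bone. The choice of the list favours genes that were higher in frontal bone, so the count is a description. Its summed level was 283 FPKM in mutant frontal bone, 128 FPKM in mutant parietal bone and in wild type 115 FPKM (frontal) and 82.3 FPKM (parietal). Only 5 genes of the list were members in wild type, of which 3 were past 3-fold in frontal bone. Without the list the mutant count was 32 higher in parietal and 82 higher in frontal bone.

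The 250 bases before the transcription start of genes were searched for TAATCC, the core letters bound by Crx and Otx factors, on both strands (GGATTA on the other), with start sites from RefSeq on GRCm38.p6. The letters stood in 6.25% of all 32851 promoters of the table, counted by start site. Counted by gene, with a match at any of its starts, they stood in 7.21% of 27025 genes. By the same count they stood in 464 of the 7607 members with an entry (6.10%). They stood in 13 of the 71 frontal-high mutant differences with an entry (18.3%), in 2 of the 25 parietal-high ones (8%), and in 7 of 23 genes of the pineal and photoreceptor list (30.4%). These sets were picked by the mutant ratio or after it had been seen, and Crx is itself a leading gene. The frontal-high and pineal sets overlap, since Crx, Sag, Rbp3, Mpp4 and Aipl1 hold the letters and belong to both. The shares are therefore a description, and a match of letters does not show a binding site. The windows of Crx (chr7:15879956-15880205, minus strand), Rbp3 (chr14:33953753-33954002, plus strand), Sag (chr1:87803430-87803679, plus strand) and Sfrp2 (chr3:83766071-83766320, plus strand) are shown, with matches in capitals. The first 3 are frontal-high photoreceptor genes that hold the letters, and Sfrp2 is the leading parietal-high gene with a match.
Crx: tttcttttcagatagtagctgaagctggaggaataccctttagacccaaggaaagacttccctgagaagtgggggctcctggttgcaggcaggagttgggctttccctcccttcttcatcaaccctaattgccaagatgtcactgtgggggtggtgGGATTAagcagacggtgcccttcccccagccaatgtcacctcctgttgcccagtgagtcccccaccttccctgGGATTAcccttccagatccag
Rbp3: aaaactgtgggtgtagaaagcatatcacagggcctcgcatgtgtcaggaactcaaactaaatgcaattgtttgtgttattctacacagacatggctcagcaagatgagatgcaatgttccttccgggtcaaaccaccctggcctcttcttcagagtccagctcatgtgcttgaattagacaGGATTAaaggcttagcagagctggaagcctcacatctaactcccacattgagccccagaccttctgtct
Sag: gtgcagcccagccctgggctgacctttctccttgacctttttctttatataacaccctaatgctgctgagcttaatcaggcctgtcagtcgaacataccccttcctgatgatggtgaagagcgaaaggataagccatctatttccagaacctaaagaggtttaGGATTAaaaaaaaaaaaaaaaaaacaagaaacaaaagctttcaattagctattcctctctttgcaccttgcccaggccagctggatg
Sfrp2: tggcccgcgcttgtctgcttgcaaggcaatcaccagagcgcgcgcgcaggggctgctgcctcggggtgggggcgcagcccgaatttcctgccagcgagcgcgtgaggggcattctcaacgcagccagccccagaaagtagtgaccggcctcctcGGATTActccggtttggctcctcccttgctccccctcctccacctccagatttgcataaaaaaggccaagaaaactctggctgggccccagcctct
Counted from the start site, the first letter of a match lay at -94 and -21 in Crx, at -69 in Rbp3, at -87 in Sag and at -96 in Sfrp2. All of these matches were of the GGATTA strand.

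Further frontal-high genes are known from the olfactory mucosa and from neurons. Cyp2g1, a cytochrome P450 of olfactory mucosa, was at 133 FPKM in mutant frontal and 34.2 FPKM in mutant parietal bone, and at 21.2 and 1.74 FPKM in wild type. Stoml3, a membrane protein of olfactory cilia, was at 68.3 and 17.9 FPKM in the mutant and at 21.8 and 1.32 FPKM in wild type. The olfactory channel Cnga2 had 15.3 and 4.41 FPKM in the mutant, and the odorant receptor transporters Rtp1 and Rtp2 were also past 3-fold. The nasal and olfactory list as a whole did not follow. Of its 26 members 1 was past 3-fold in frontal bone (Cnga2) and 1 in parietal bone (Scgb1c1), with a median log2 ratio of -0.27. Its summed level was 3848 and 3954 FPKM in the mutant bones. Lcn3, a nasal gene outside the list, was also past 3-fold in parietal bone. Among neuronal genes, the synaptic vesicle protein Syt1 was at 17.8 and 4.55 FPKM in the mutant and at 28.5 and 0.636 FPKM in wild type. Gad1, which makes the transmitter GABA, was at 18.6 and 6.16 FPKM and at 31.7 and 0.383 FPKM. For both, wild-type frontal bone was the highest library and wild-type parietal bone by far the lowest. The neuronal and glial list held 28 members, with 3 past 3-fold in frontal bone (Slc17a6, Syt1 and Gad1), none in parietal bone, and a median log2 ratio of -0.68. The abundant myelin gene Mbp did not follow, at 208 FPKM in mutant frontal and 270 FPKM in mutant parietal bone. The summed level of the list was 895 and 774 FPKM in the mutant bones, and 918 and 385 FPKM in wild-type frontal and parietal bone. What part nerve, pineal or nasal tissue had in these values was not tested.

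Other leading genes of the frontal side were of several kinds. Dspp, the dentin sialophosphoprotein of tooth dentin on chromosome 5 (104599731 to 104609146, plus strand, 6 exons), had the widest ratio at 37.6 and 3.14 FPKM, a 12.0-fold difference. It was at 0.0771 FPKM in wild-type frontal bone and listed at 0 in wild-type parietal bone. The dentin and enamel list held 5 members, of which Dspp was past 3-fold, while Amelx, the main enamel protein amelogenin, was higher in parietal bone, at 39.6 and 101 FPKM. Cdhr1, a photoreceptor cadherin, was at 15.8 and 3.30 FPKM in the mutant, and Synpr, a synaptic vesicle protein, at 21.3 and 4.87 FPKM. Sorl1, a sorting receptor, was at 15.9 and 3.37 FPKM, F2rl1, a protease-activated receptor, at 10.6 and 2.26 FPKM, and Sult1d1, a sulfotransferase, at 10.1 and 2.32 FPKM. Chrnb4, a subunit of nicotinic acetylcholine receptors, was at 10.9 and 2.29 FPKM, and A930011O12Rik, whose role is not known here, at 10.1 and 1.54 FPKM. Xist, the RNA that silences 1 X chromosome in female cells, was at 26.5 FPKM in mutant frontal and 5.04 FPKM in mutant parietal bone, and at 51.7 and 39.2 FPKM in wild type. The Y-linked genes Ddx3y (9.84 and 11.4 FPKM in the mutant) and Eif2s3y (14.5 and 15.6 FPKM) were present in both bones, so both mutant libraries held RNA of male and female cells. Between the wild-type bones both Y-linked genes were past 3-fold higher in parietal bone, the lower log2 ratio being 1.97 and the higher 2.02. In the mutant both lay within 1.5-fold. The shares of the sexes in the bones are not given, and their part in other differences was not tested.

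The osteoblast, osteoclast and osteocyte lists were shifted modestly to the parietal side, and no member of them was past 3-fold. Ostn, which is outside these lists and is described with the kept differences, was past 3-fold in parietal bone (7.82 and 24.1 FPKM). Of 21 osteoblast members 18 were above a ratio of 1, against 5461 of 9941 members in all. The osteoblast median log2 ratio was 0.55 (range -0.49 to 1.45) against 0.07 over all members. That median was 0.48 with GC medians subtracted and 0.32 with GC and then length medians subtracted. The matrix proteins Bglap, Bglap2 and Spp1 had mutant log2 ratios of 0.57, 0.63 and 0.55. In wild type Bglap and Bglap2 lay the other way, at -0.38 and -0.48, and the mutant ratio of Bglap came to -0.10 with GC and then length medians subtracted. Sp7 had a log2 ratio of 0.37 in the mutant and -0.61 in wild type. The parathyroid hormone receptor Pth1r was at 119 and 249.9 FPKM in the mutant bones and at 112 and 114 FPKM in wild type. The osteoblast list also held 3 genes past 3-fold between the wild-type bones, of which Ibsp and Mmp13 were reduced in the mutant and Ogn was lost.

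All 14 osteoclast members had a mutant ratio above 1, with a median log2 ratio of 0.67 and none past 3-fold. Acp5, the tartrate-resistant acid phosphatase, was at 1389 and 2990 FPKM in the mutant and at 1098 and 3345 FPKM in wild type. Ctsk, the cathepsin that cuts bone collagen, was at 1229 and 2600 FPKM in the mutant and at 1027 and 4782 FPKM in wild type. In wild type 6 of 14 osteoclast members were past 3-fold in parietal bone, and in the mutant 5 of these were reduced and 1, Atp6v0d2, was lost. Osteocyte members were mixed, with 10 of 16 above a ratio of 1 and a median of 0.28, against 5461 of 9941 and 0.07 over all members. The sclerostin gene Sost was at 45.5 and 75.05 FPKM, Mepe at 124 and 239 FPKM, and the phosphate regulator Phex at 43.3 and 30.3 FPKM. Fgf23, the phosphate hormone made by osteocytes, was no member, at 1.004 FPKM in mutant frontal and 0.202 FPKM in mutant parietal bone. In the wild-type bones it was at 0.525 and 20.9 FPKM, a difference that fell below 5 FPKM in the mutant.

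The transcription factors that pattern the skull lay mostly on the parietal side in the mutant. Of 29 members, 24 were above a ratio of 1, against 5461 of 9941 members in all. Past 3-fold were 1 in parietal bone (Prrx2) and 1 in frontal bone (Alx1). The median log2 ratio of the list was 0.46 against 0.07 over all members. That median was 0.25 with GC medians subtracted and 0.23 with GC and then length medians subtracted. Alx1, a homeobox factor of frontonasal neural crest, was at 5.96 and 1.64 FPKM in the mutant bones and at 4.97 and 6.33 FPKM in wild type. The low value was that of mutant parietal bone alone. Dlx1, a homeobox factor of the first arch and forebrain, was at 6.62 and 2.92 FPKM in the mutant and at 7.47 and 0.301 FPKM in wild type, and Otx2 at 9.53 and 3.25 FPKM in the mutant. The zinc finger factors Zic1 (7.59 and 17.6 FPKM) and Snai1 (15.9 and 36.8 FPKM) and the forkhead factor Foxd1 (6.83 and 16.1 FPKM) had log2 ratios of 1.22, 1.21 and 1.24. Factors of the sutures lay near the middle, with Msx1 at 0.49, Prrx1 at 0.52 and Runx2 at 0.36, and Alx4 at 0.05. No Hox gene was a member in either genotype. The 39 Hox genes together summed to 3.56 FPKM in mutant frontal and 5.05 FPKM in mutant parietal bone.

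Among signalling pathways, the Wnt list was the one with members past 3-fold in the mutant. It held 18 members, 2 of them past 3-fold in parietal bone (Sfrp2 and Notum) and none in frontal bone, with 16 above a ratio of 1 and a median of 0.57. Over all members 5461 of 9941 were above a ratio of 1, and the median was 0.07. Wif1, a secreted Wnt binding protein, was at 339 and 452 FPKM, Dkk1, which blocks the Wnt co-receptor, at 25.03 and 53.3 FPKM, and Sfrp4 at 15.03 and 27.8 FPKM. These secreted inhibitors, together with Sost, were each higher in mutant parietal bone, as were most members of the list. The receptor gene Fzd4, with the lowest log2 ratio of the list (-1.01), was at 5.15 and 2.56 FPKM. In wild type Sfrp4 was at 14.3 and 109.8 FPKM, the only Wnt gene past 3-fold there, and it was reduced in the mutant. The BMP list held 23 members, 17 above a ratio of 1, with a median of 0.37. Its target genes Id1 and Id3 had log2 ratios of 1.03 and 1.16. The FGF list held 12 members with a median of 0.43, and its receptor genes Fgfr1 and Fgfr2 both had a log2 ratio of 0.50. The TGF-beta and hedgehog lists held 21 and 8 members with medians of 0.21 and 0.23. No member of these 4 lists was past 3-fold. With GC medians subtracted the medians were 0.35 (Wnt), 0.25 (BMP), 0.21 (FGF), 0.08 (TGF-beta) and 0.05 (hedgehog). With length medians subtracted they were 0.55, 0.42, 0.40, 0.24 and 0.37 in the same order.

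**Figure D2:**
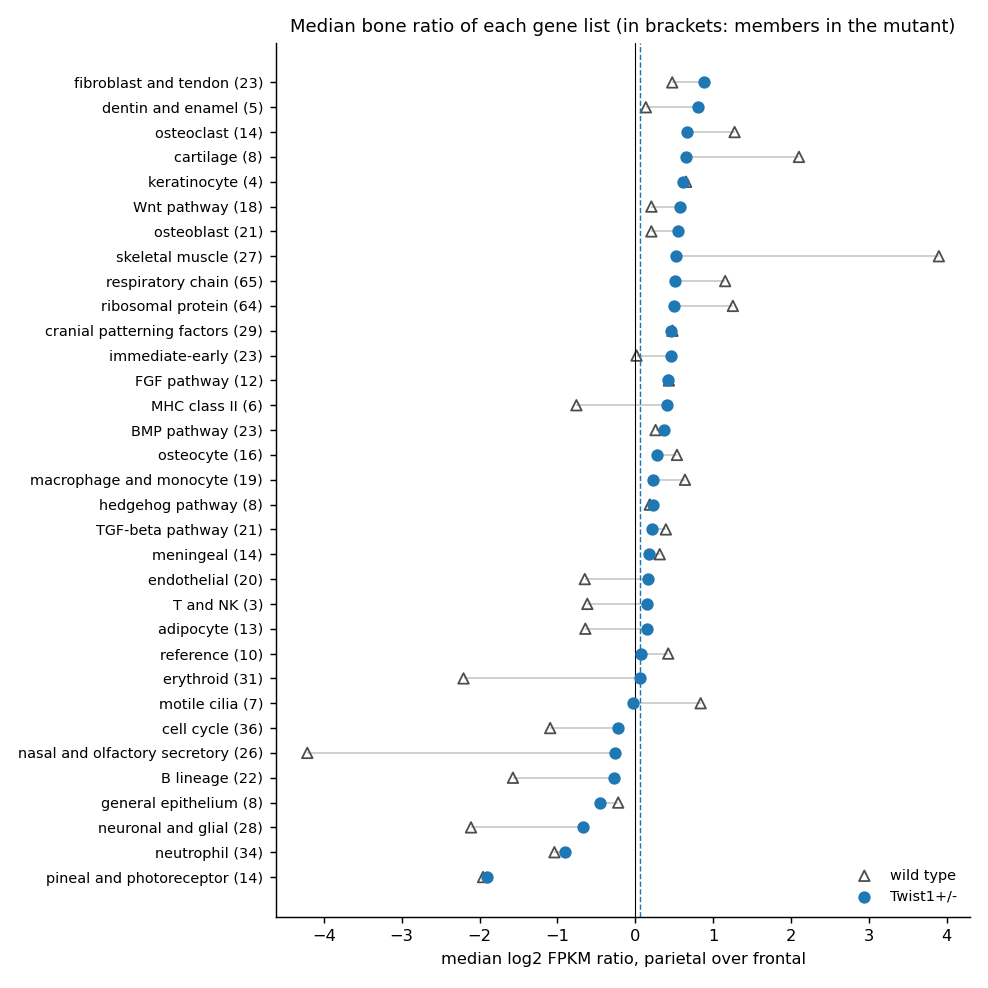
Median log2 FPKM ratio, parietal over frontal bone, of gene lists in the mutant (filled circles) and in wild type (open triangles), with the number of mutant members in brackets. The sex-linked list and the Hox list, which had no member, are not drawn. The dashed line is the median of all mutant members, 0.07. The muscle, nasal, erythroid and neuronal lists, at 3.90, -4.21, -2.21 and -2.11 in wild type, were at 0.53, -0.27, 0.06 and -0.68 in the mutant, and the neutrophil list was at -1.04 in wild type and -0.90 in the mutant, which moved to -1.48 and -0.85 when scaled to Gapdh.

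Of the 867 differences between the wild-type bones, 678 were members in the mutant and could be placed by their mutant ratio. A difference was called kept when it lay in the same direction past 3-fold, reduced when it lay in the same direction between 1.5-fold and 3-fold, lost when it lay within 1.5-fold either way, and reversed when it lay past 1.5-fold in the other direction. By these limits 41 were kept (6.05%), 318 were reduced (46.9%), 300 were lost (44.2%) and 19 were reversed (2.80%). A further 188 were under 5 FPKM in both mutant libraries and 1 was listed at 0. Differences higher in wild-type parietal bone (304) divided into 11 kept, 107 reduced, 88 lost and 10 reversed. Those higher in wild-type frontal bone (563) divided into 30 kept, 211 reduced, 212 lost and 9 reversed.

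Most placed differences kept their sign with a smaller size. The sign was the same in 575 of 678 (84.8%), in 190 of the 216 parietal-high genes and in 385 of the 462 frontal-high genes. The median log2 ratio of the parietal-high genes was 2.10 in wild type and 0.64 in the mutant, and that of the frontal-high genes was -2.30 and -0.61. Genes chosen for a wide ratio in one pair of libraries tend to have a narrower one in another pair, so the reverse table is given beside it. Of the 124 mutant differences 76 were members in wild type, of which 41 were past 3-fold in the same direction there, 15 were reduced, 15 were within 1.5-fold and 5 lay the other way. Chosen in this direction the median did not shrink on the frontal side, at -1.92 in the mutant and -2.09 in wild type over 52 genes, and went from 1.71 to 1.07 over 24 genes on the parietal side. Over all 9577 genes that were members in both, the ratios had a Pearson correlation of 0.46 and a Spearman correlation of 0.44 across genes, which are not independent replicates. The 2 comparisons share no library, but genes of like length or base composition move together within a library.

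**Figure D3:**
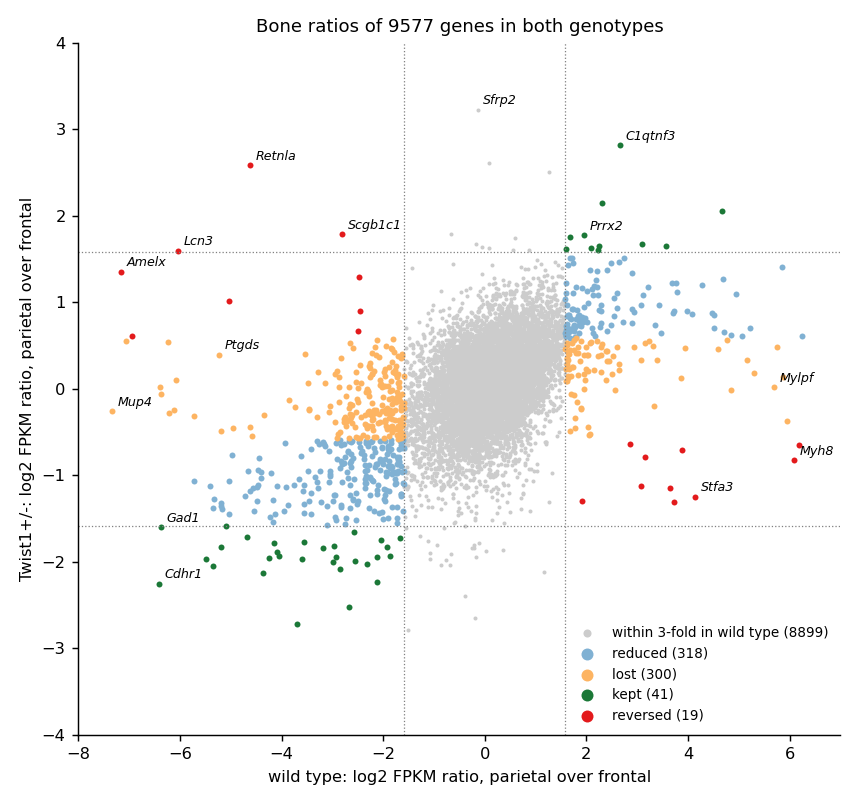
Log2 FPKM ratio, parietal over frontal bone, in wild type (horizontal axis) and in the mutant (vertical axis) for the 9577 genes that were members in both, with 3-fold limits as dotted lines. Colours give the class of each wild-type difference, with 41 kept, 318 reduced, 300 lost and 19 reversed. The cloud is wide along the wild-type axis and narrow along the mutant axis, and Sfrp2 stands alone at the top near a wild-type ratio of 1.

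The 30 differences kept on the frontal side included genes of neurons and photoreceptors. Cdhr1, Gad1, Syt1, Scg2, Synpr and Chgb had the widest wild-type ratios among those at or above 10 FPKM in wild-type frontal bone. The granule proteins Scg2 (secretogranin) and Chgb (chromogranin) were at 21.0 and 5.09 FPKM and at 29.6 and 8.60 FPKM in the mutant bones, and at 20.3 and 0.497 FPKM and 12.3 and 0.688 FPKM in wild type. In each of these genes the frontal levels of both genotypes were within 3-fold of each other, and the wild-type parietal level was the lowest of the 4. Most neuronal differences were not kept. Of 17 wild-type frontal-high differences of the neuronal and glial list, 2 were kept (Gad1 and Syt1), 9 reduced and 5 lost, and 1 fell below 5 FPKM. Of all placed frontal-high differences 6.49% were kept. The 11 kept on the parietal side included C1qtnf3, Prrx2, Anxa8, Cilp2, Ostn, Rpl39l, Ppp1r27 and Pvalb. Pvalb (parvalbumin, a calcium buffer of fast muscle) was at 35.4 and 111 FPKM in the mutant and at 12.9 and 152 FPKM in wild type. Ostn, a secreted peptide of bone and muscle, was at 7.82 and 24.1 FPKM in the mutant and at 16.9 and 72.2 FPKM in wild type.

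Among the lists, skeletal muscle held the most parietal-high differences of wild type, and most of them were reduced or lost in the mutant. In wild type 29 of 30 members of the muscle list were past 3-fold in parietal bone, with a median log2 ratio of 3.90. In the mutant 1 of 27 members, Pvalb, was past 3-fold, and the median was 0.53. Of the 29 wild-type differences 1 was kept, 11 were reduced, 13 were lost, 1 was reversed and 3 fell below 5 FPKM. Of all 216 placed parietal-high differences 5.09% were kept, 49.5% reduced, 40.7% lost and 4.63% reversed, so most were reduced or lost there too. Mylpf, the regulatory light chain of fast muscle, was at 353 and 357 FPKM in mutant frontal and parietal bone and at 25.02 and 1295 FPKM in wild type. Myl1, an essential light chain, was at 212 and 233 FPKM in the mutant and at 12.0 and 695 FPKM in wild type, and the troponins Tnnc2 and Tnnt3 and the myosin heavy chain Myh1 showed the same order of libraries. For these genes both mutant bones lay between the wild-type bones. The summed level of the muscle list was 1887 and 2557 FPKM in the mutant bones, and 208 and 5017 FPKM in wild-type frontal and parietal bone. The wild-type libraries thus held the extremes, and how much muscle was left on each bone is not known.

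Nasal and olfactory secretory genes lost their frontal excess in a like way. In wild type 20 of 21 members were past 3-fold in frontal bone, with a median log2 ratio of -4.21. In the mutant, with 26 members, 1 was past 3-fold in frontal bone (Cnga2) and 1 in parietal bone (Scgb1c1), and the median was -0.27. Of the 20 wild-type differences 4 were reduced, 14 lost and 2 reversed. Of all 462 placed frontal-high differences 6.49% were kept, 45.7% reduced, 45.9% lost and 1.95% reversed. Mup4, a lipocalin of nasal glands, was at 53.9 and 44.9 FPKM in the mutant and at 17.7 and 0.110 FPKM in wild type. Lcn11, another lipocalin, was at 117 and 112 FPKM in the mutant and at 19.2 and 0.231 FPKM in wild type. Here both mutant bones lay above both wild-type bones, with list sums of 3848 and 3954 FPKM in the mutant and 990.2 and 128 FPKM in wild type. The wild-type differences of 5430401F13Rik, Gm14743, Gm14744 and Obp2b (an odorant-binding protein) were also lost. The last 3 had both mutant bones above both wild-type bones, while wild-type frontal bone lay above mutant frontal bone for 5430401F13Rik. Several of these genes belong to families of near copies, for which read assignment is uncertain. The list was thus at like levels in both mutant bones and, in wild type, mainly in the frontal library. The part of attached nasal tissue in this was not tested.

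Blood cell genes showed different patterns by lineage. For erythroid genes, the nonglobin members were lower in wild-type parietal bone, with 20 of 28 members past 3-fold in wild-type frontal bone and a median log2 ratio of -2.21. In the mutant the median was 0.06 over 31 members, and of the 20 differences 2 were reduced, 17 lost and 1 fell below 5 FPKM. Klf1, the transcription factor of the erythroid programme, was at 42.4 and 48.3 FPKM in the mutant and at 74.1 and 7.64 FPKM in wild type. The sign of the mutant median turns with scaling, since it was -0.05 with GC medians subtracted and -0.11 with length medians subtracted. The globin genes Hbb-b1, Hbb-bt and Hba-a1 were listed at 0 in wild-type frontal bone, so they have no wild-type ratio, and had log2 ratios of 0.63, 0.61 and 0.67 in the mutant. B-lineage genes were 12 of 24 past 3-fold in wild-type frontal bone, and in the mutant none of 22 was, with medians of -1.57 and -0.28. Pax5, the factor that fixes B-cell identity, was at 11.5 and 16.7 FPKM in the mutant and at 14.0 and 2.23 FPKM in wild type. Cell cycle genes followed, with medians of -1.09 in wild type and -0.22 in the mutant, and none of 36 past 3-fold in the mutant.

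Neutrophil genes had a frontal excess in both genotypes. The median log2 ratio was -0.90 in the mutant over 34 members, of which 32 were below a ratio of 1, and -1.04 in wild type. These medians came apart with other scalings, to -0.85 and -1.48 when scaled to Gapdh, -1.29 and -1.81 with length medians subtracted, and -1.05 and -1.81 with GC and then length medians subtracted. S100a8, a calcium-binding protein abundant in neutrophils, was at 9048 and 4924 FPKM in the mutant and at 8034 and 4373 FPKM in wild type, so the ratio was the same to 2 digits (log2 -0.88 in both). The granule genes Ngp (1205 and 564 FPKM in the mutant) and Chil3 (332 and 148 FPKM) had mutant log2 ratios of -1.10 and -1.17. The summed level of the list was 21026 and 12692 FPKM in the mutant bones and 18357 and 12493 FPKM in wild type. Olfm4, a granule protein of a neutrophil subset, was the only member past 3-fold, at 13.8 and 3.20 FPKM in the mutant and 10.8 and 24.2 FPKM in wild type, where it lay the other way.

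The stefin A cluster, cysteine protease inhibitors of neutrophils on chromosome 16, held 6 of the 10 reversed differences of the parietal side. Stfa3 was at 74.8 FPKM in mutant frontal and 31.5 FPKM in mutant parietal bone, and at 21.8 and 385.5 FPKM in wild-type frontal and parietal bone. Stfa1 (104 and 63.6 FPKM, against 47.8 and 704 FPKM), Stfa2 (146 and 59.1, against 30.3 and 399 FPKM) and BC100530 (152 and 68.2, against 50.7 and 635 FPKM) had the same order of libraries. Wild-type parietal bone was the highest library for each, and wild-type frontal bone the lowest. Of the neutrophil list, the 6 genes past 3-fold in wild-type parietal bone all belonged to this cluster and all were reversed, while its other 11 wild-type differences were 7 reduced and 4 lost. Stefin genes are near copies of each other, so values of single genes are uncertain. The remaining named reversals on the parietal side were the muscle genes Myh8 (10.7 and 6.02 FPKM, against 0.467 and 31.7 FPKM) and Sln (5.12 and 3.25 FPKM, against 0.165 and 12.1 FPKM).

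On the frontal side 9 differences were reversed. Retnla, the resistin-like protein of alternatively activated macrophages and fat tissue, lies on chromosome 16 from 48842665 to 48844574 (plus strand, 4 exons). It was at 6.81 FPKM in mutant frontal and 40.8 FPKM in mutant parietal bone, and at 68.8 and 2.81 FPKM in wild-type frontal and parietal bone. Scgb1c1, a secretoglobin of olfactory mucosa on chromosome 7, was at 210.3 and 726 FPKM in the mutant and at 44.5 and 6.35 FPKM in wild type. Lcn3, a lipocalin of the vomeronasal organ and nasal glands, was at 29.3 and 88.5 FPKM in the mutant and at 16.4 and 0.251 FPKM in wild type. These 3 genes were past 3-fold in opposite directions in the genotypes, Lcn3 by a narrow margin (3.02-fold in the mutant). Amelx was at 10.8 and 0.0760 FPKM in wild type against its parietal excess in the mutant. The odorant-binding protein Obp2a was at 160.1 and 244 FPKM in the mutant and 91.9 and 0.747 FPKM in wild type, and the RNA-binding protein Rbm38 at 65.2 and 103 FPKM and at 106 and 18.8 FPKM.

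**Figure D4:**
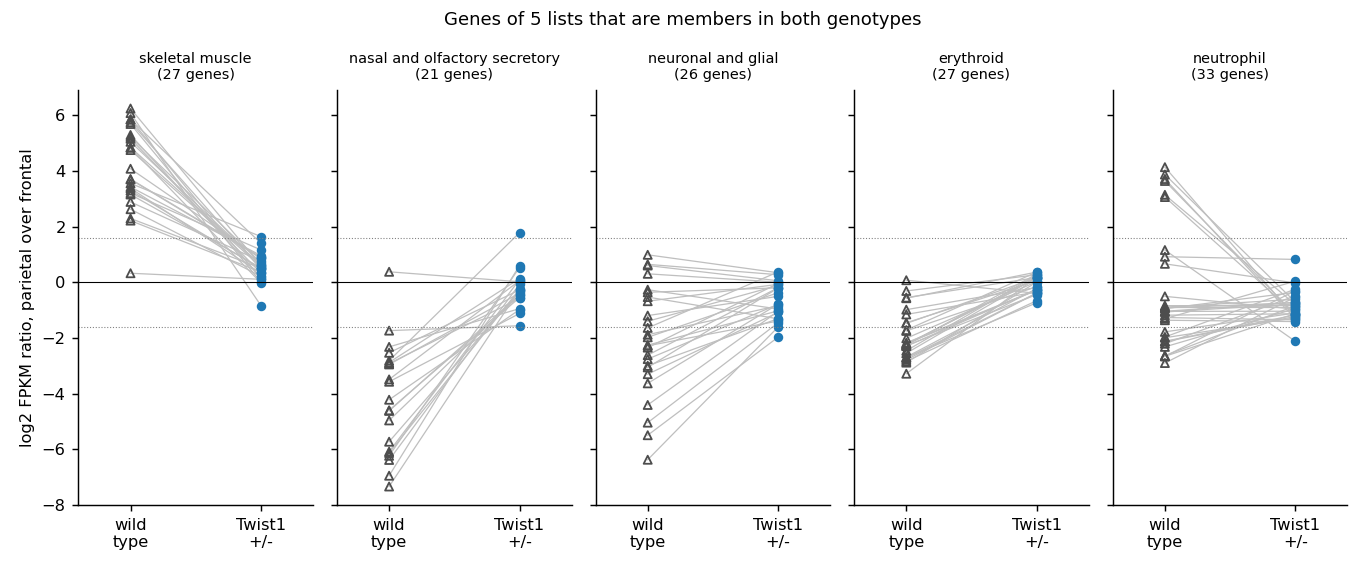
Log2 FPKM ratio, parietal over frontal bone, of single genes of 5 lists in wild type (open triangles) and in the mutant (filled circles), each gene joined by a line, with 3-fold limits dotted. Only genes that were members in both genotypes are drawn. Muscle genes come down from between 0.33 and 6.25 towards 0, nasal and erythroid genes come up towards 0, and 6 stefin genes of the neutrophil panel cross from above the upper limit to below 0.

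Of the 124 mutant differences, 6 on the parietal side and 9 on the frontal side lay within 1.5-fold between the wild-type bones. Beside Sfrp2, Clec3b, Crispld2 and Igfbp6, the 6 were Ier5l, an immediate-early response gene, at 6.11 and 19.5 FPKM in the mutant and at 5.46 and 4.85 FPKM in wild type, and Ahnak, a giant scaffold protein, at 38.5 and 117 FPKM in the mutant and 34.3 and 50.4 FPKM in wild type. The 9 included Lnpep, an aminopeptidase (11.2 and 2.92 FPKM, against 12.3 and 10.9 FPKM in wild type), and Mdm4, a p53 inhibitor (14.8 and 4.12 FPKM, against 17.7 and 14.9 FPKM). Mitf, the transcription factor of melanocytes and osteoclasts, was at 15.4 and 4.50 FPKM in the mutant and at 5.32 and 4.93 FPKM in wild type. For Lnpep and Mdm4 the mutant parietal library was the low one, and for Mitf the mutant frontal library was the high one. Of the 92 frontal-high differences 55 were also past 3-fold between the wild-type bones when no limit on FPKM was set there, against 11 of the 32 parietal-high ones. With no such limit 16.5% of 17498 wild-type genes were past 3-fold, 1928 on the frontal side and 958 on the parietal side. Some of the 55 rest on wild-type parietal values below 1 FPKM, such as Pde6c (1.02 and 0.0980 FPKM in wild type).

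The remaining lists had at most 1 member past 3-fold in the mutant. Ribosomal protein genes and respiratory chain genes were shifted together to the parietal side, with medians of 0.50 (63 of 64 members above a ratio of 1) and 0.51 (62 of 65). In wild type the medians were 1.25 and 1.16. With length medians subtracted they came to 0.04 and 0.10 in the mutant, and to 0.42 and 0.32 in wild type. The mutant shift was thus shared with other short transcripts, and the wild-type shift only in part. Cartilage genes had 8 members and a median of 0.65, or 0.33 with GC medians subtracted. Matn4 (matrilin) was at 13.9 and 38.3 FPKM and Comp at 4.56 and 12.4 FPKM. Meningeal genes had 14 members and a median of 0.17, and Ptgds, the prostaglandin D synthase of the meninges, was at 327 and 428 FPKM in the mutant and at 1975 and 52.8 FPKM in wild type. MHC class II genes had a median of 0.41 in the mutant and -0.76 in wild type, and the mutant median came to 0.01 with length medians subtracted. Cfd (complement factor D, made by fat cells) was the only adipocyte gene past 3-fold, at 1.60 and 7.25 FPKM. Endothelial, macrophage, T and NK cell, adipocyte, immediate-early, general epithelium and motile cilia lists had mutant medians between -0.45 and 0.45. The 10 reference genes had a median of 0.08, and Gapdh was at 170 and 164 FPKM in the mutant bones. Medians of the meningeal, macrophage, T and NK cell, endothelial, adipocyte and reference lists changed sign when GC or length medians were subtracted, and that of the motile cilia list when scaled to Gapdh, so no direction is given for them.

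Base composition and length of transcripts moved with the mutant ratio. Over 9733 members with a value (97.9%), the log2 ratio had a Spearman correlation of 0.47 with GC content and of -0.48 with length, across genes. In the lowest of 20 groups by GC content (median 39.3%) the median log2 ratio was -0.38, and in the highest (median 61.6%) it was 0.51. By length it went from 0.54 in the shortest group (median 711.5 bases) to -0.40 in the longest (median 8691 bases). Parietal-high mutant differences had a median GC content of 53.6% and a median length of 1431 bases, frontal-high ones 47.4% and 3701 bases, and all members 50.8% and 2884 bases. In wild type the correlation with GC content was -0.14 and that with length -0.35. With the median of each length group subtracted, 20 differences were higher in parietal and 112 in frontal bone, so the share higher in parietal bone went from 25.8% to 15.2%, and with GC and then length medians subtracted it was 14.0% (16 and 98). With the median ratio set to 1 it was 17.1% (21 and 102). Crx, Rbp3, Tph1, Cdhr1 and Sfrp2 stayed past 3-fold with each of these corrections, while Scgb1c1 and Lcn3 had log2 ratios of 1.25 and 1.06 with length medians subtracted and Prrx2 1.26 with GC medians subtracted, all within 3-fold. The cause of these trends was not tested.

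**Figure D5:**
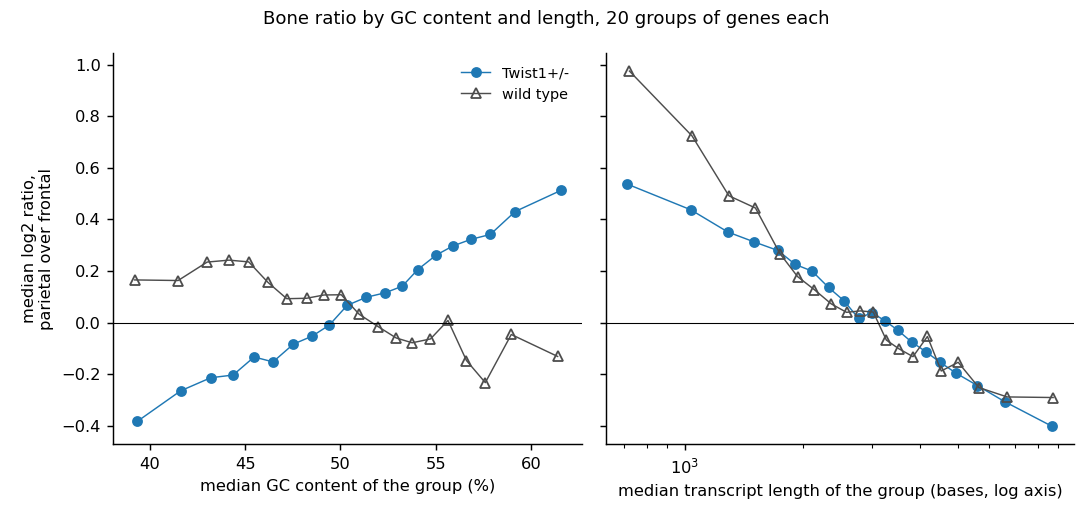
Median log2 FPKM ratio, parietal over frontal bone, of 20 groups of genes by GC content (left) and by transcript length (right, log axis), in the mutant (filled circles) and in wild type (open triangles). The mutant ratio climbs from -0.38 to 0.51 with GC content while the wild-type ratio goes from 0.17 to -0.13, and both fall with length.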

How the data were processed

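Poly(A) RNA of the 4 libraries was sequenced as single-end reads of 75 bases from stranded libraries. The authors aligned the reads to mm9 with STAR 2.4.2a and quantified genes with Cuffdiff (Cufflinks 2.2.1) on the iGenomes annotation, and the deposited values are FPKM, 1 per gene symbol and library. The scaling option of Cuffdiff is not given in the sources used here. Libraries were grouped by genotype and bone from their labels. FPKM values give no counts, so no count test, interval or detection floor is given, and with 1 library per condition no test was possible.

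Log2 ratios were formed with no pseudocount, with Python 3.11.15, numpy 2.4.6 and pandas 2.3.3. The text of the study also uses a limit of 3-fold, there joined with a limit on the p-value, and a figure legend words the limits otherwise. The counts here rest on the ratio alone. Genes listed at 0 in a library give no ratio. Of the genes left out, 1193 were short RNAs, 3094 were listed at 0 in both mutant libraries, 1733 at 0 in 1 of them and under 5 FPKM in the other, and 7984 were above 0 but under 5 FPKM in both. Only AF357399, listed at 0 in frontal bone and at 13.8 FPKM in parietal bone, was at 0 in 1 mutant library and above 5 FPKM in the other. The relative worth of 1 read came from 597 genes between 0.005 and 0.1 FPKM in both mutant libraries. Of these, 11.6% lay within 0.1 log2 units of the ratio given, against 4.02% elsewhere.

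Genes were named by rule: the 12 widest mutant ratios in each direction at or above 10 FPKM, the 6 widest wild-type ratios per direction among those kept, lost and reversed and 6 per direction seen in the mutant alone, both at or above 10 FPKM in the higher library of their comparison, and up to 8 genes of each list. Timeless, Meox2, Zfp91, Tnmd, Cyp2g1, Stoml3, Rtp1, Rtp2, Pth1r, Runx2, Sfrp4, Fzd4, Ostn, Klf1, Pax5, Chil3 and Ahnak were named outside the rule, after their values were seen. The members and the 33 gene lists were chosen with earlier results of these data known, and 2 more lists after the leading genes were seen. Positions, GC content and length (longest coding transcript) came from GENCODE M1 on mm9, which matched 91.2% of symbols. Promoters came from RefSeq on GRCm38.p6 and were used for sequence only. The steps were tested on simulated data. Alternatives were other pseudocounts, thresholds, floors and scalings, subtraction of GC or length medians, and lists left out.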

Additional observations from a re-analysis of the deposited data

Results flagged for a closer look

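Retnla was past 3-fold in opposite directions in the genotypes, with a log2 ratio of parietal over frontal bone of 2.58 in the mutant and -4.61 in wild type. Scgb1c1 had 1.79 in the mutant and -2.81 in wild type, and Lcn3 had 1.60 and -6.03. The mutant ratios of the last pair are not firm. Scgb1c1 came to 1.25 with length medians subtracted, and Lcn3 to 1.53 with the median ratio set to 1, 1.56 with a pseudocount of 1 FPKM and 1.06 with length medians subtracted, all within 3-fold and in the same direction. Retnla was past 3-fold under these settings, between 2.05 and 2.52. Each of these genes was singled out because its only mutant pair of libraries moved one way and its only wild-type pair the other. The difference between genotypes was not tested, since each rests on 1 library per bone and genotype.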

How the results depend on the processing

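No paired analysis was possible because each group has 1 library. With 1 library per condition, no result could be repeated without a replicate, and the depth of single libraries, which limits genes of low level most, is unknown. Higher in parietal bone were 32 mutant members, against 18 with a pseudocount of 1 FPKM, 21 with the median ratio set to 1, 227 at 2-fold, 8 at 5-fold, 261 with no floor, 17 at a floor of 20 FPKM, 20 with length medians subtracted and 16 with GC and then length medians subtracted. Higher in frontal bone were 92, against 47 with a pseudocount of 1 FPKM, 382 at 2-fold, 12 at 5-fold, 1025 with no floor, 45 at a floor of 10 FPKM and 13 at 20 FPKM. Of the wild-type differences 41 were kept, against 24 with a pseudocount of 1 FPKM, 272 at 2-fold, 3 at 5-fold, 465 with no floor, 21 at a floor of 10 FPKM and 8 at 20 FPKM. Lost were 300, against 1108 at 2-fold, 102 at 5-fold, 963 with no floor, 130 at 20 FPKM and 496 scaled to Gapdh, where the reversed went from 19 to 30. Thresholds and floors change how many genes enter, and the cause of the other shifts was not tested. Pearson's r between genotypes was 0.46, against 0.57 with GC medians subtracted, 0.40 with length medians subtracted and 0.52 with both. Of the genes in the 33 lists, 16 were past 3-fold in the mutant, against 76 at 2-fold, 5 at 5-fold, 46 with no floor and 7 at 20 FPKM. Gapdh had a log2 ratio of 0.44 in wild type and -0.05 in the mutant, which scaling to Gapdh subtracts from every ratio. Subtraction of length medians, removal of the pineal list and counts scaled to Gapdh were chosen after seeing the data. For 29 named genes, 180 values stayed on their side of 3-fold and in their direction under these settings, and 11 did not.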
